A study of Homo sapiens with 9 samples.

Results

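The JAK kinases, STAT transcription factors and interferon gamma receptor chain 1 were followed across 3 groups of prostate cancer cells. The 9 genes are JAK1, JAK2, JAK3, TYK2, STAT2, STAT3, STAT5A, STAT5B and IFNGR1, taken by symbol from a deposited table of 28216 genes. The choice was made by symbol, with earlier results of these data known, and each of the 9 symbols had 1 row. RNA was measured in 9 libraries, 3 each from untreated PC3 cells, androgen-treated LNCaP cells and vehicle-treated LNCaP cells.

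The androgen was dihydrotestosterone (DHT) at 10 nM by the sample labels, whereas the study's methods name R1881, a synthetic androgen, at the same dose, so which androgen was given is not settled here. It was given for 48 h, and the vehicle was 0.01% ethanol for the same time. Both LNCaP groups (clone FCG) had first spent 24 h in phenol-red-free medium with charcoal-stripped serum, which holds little steroid. PC3 cells, an androgen-insensitive line from a bone metastasis, grew in F12K medium with regular serum. LNCaP cells are an androgen-responsive line from a lymph node metastasis. Each cell type is thus represented by 1 line, and line, medium and serum cannot be told apart in a comparison of PC3 with LNCaP cells. All 3 groups were labelled as wild-type epithelial cells. Nothing in the labels says that libraries of a group came from separate cultures, so the p-values measure only the spread between these libraries, which may be technical.

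JAK kinases are held on the inner tails of cytokine receptors, which have no kinase activity of their own. A bound cytokine brings the receptor chains together, the kinases phosphorylate each other and the receptor, and STAT proteins dock there, are phosphorylated, pair and move to the nucleus to switch on genes. Interferon gamma acts through IFNGR1 and IFNGR2 with JAK1 and JAK2, whereas type I interferons act through IFNAR1 and IFNAR2 with JAK1, TYK2, STAT2 and IRF9. Interleukin 6 and related cytokines share the receptor chain IL6ST and act mainly on STAT3, which has been studied widely in prostate cancer, and growth hormone and prolactin act through JAK2 and STAT5.

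Libraries held 17397706 to 25640325 counts on genes. Values are given in counts, or in CPM, which are counts scaled by TMM factors to a common library size. A count of 0 allows up to 3 counts, which is 0.118 to 0.16 CPM in these libraries, and this limit is called the floor below. It covers the counting error of a count of 0 only. Groups with counts above 0 and up to 3 are also called at or under the floor. Counting error allows them more than 3 counts, so a fold taken against the floor is then not a strict bound. Among the PC3 libraries replicate 3 stood furthest apart, with a chi-square per degree of freedom of 29.8 and 51.4 against replicates 1 and 2, which differed from each other by 10.9. PC3 libraries carried the 5 PC3 marker genes at a summed 3990 to 4535 CPM, against 15.7 to 41.4 CPM in LNCaP libraries. The 6 LNCaP markers summed to 2552 to 11460 CPM in LNCaP libraries and to 518 to 855 CPM in PC3 libraries. Most of the PC3 sum came from HOXB13, which did not separate the lines. It was at 471.5, 522.6 and 804.8 CPM in PC3 and 415 to 544.6 CPM in LNCaP libraries. All 4 epithelial markers lay above the floor in every library. Of the defining leukocyte markers, CD3E was at or under the floor in all 3 groups, and PTPRC and CD14 in both LNCaP groups. The leukocyte list of 4 genes summed to 32.9 to 34.8 CPM in PC3 libraries, 15.7 to 22.9 CPM in androgen-treated and 1.65 to 2.36 CPM in vehicle-treated LNCaP libraries. CD68 gave nearly all of these sums, at 32.4 to 34.3, 15.7 to 22.9 and 1.59 to 2.30 CPM in the same order. The part of leukocyte RNA in the results was not tested. The fibroblast list summed to 37.2 to 49.9 CPM in PC3 and 12.7 to 25.2 CPM in LNCaP libraries. DCN was at or under the floor in all groups. COL1A1 gave most of these sums, at 33.1 to 42.0 CPM in PC3 and 12.3 to 23.3 CPM in LNCaP libraries. The endothelial list summed to 6.22 to 17.9 CPM over all libraries, with CDH5 and TEK at or under the floor. KDR, at 3.03 to 5.53 CPM, and PECAM1, at 1.87 to 3.35 CPM, were above the floor in PC3 libraries only. VWF was at 6.84 to 17.9 CPM in LNCaP libraries and at or under the floor in PC3 libraries. In these bulk libraries, fewer cells expressing a gene and less RNA per cell cannot be told apart.

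PC3 cells carried far more JAK1 RNA than LNCaP cells, and almost no RNA of STAT3, STAT5A or STAT5B. Against androgen-treated LNCaP cells, JAK1, JAK3 and TYK2 were higher in PC3 cells and STAT3, STAT5A and STAT5B were lower. JAK2, STAT2 and IFNGR1 differed by less than 2-fold. Calls rest on edgeR's quasi-likelihood test and need an adjusted p under 0.05 together with a change of 2-fold or more. By this rule 6 of the 9 members were called, 3 higher and 3 lower, in a comparison where 46% of all 12541 tested genes were called, 24% higher and 22.1% lower. By the adjusted p alone all 9 passed, 5 higher and 4 lower, where 84% of all tested genes passed, 42.9% higher and 41.1% lower. The median log2 fold change of the 9 members was 0.319, against 0.0356 over all genes tested. A gene was tested if more than 3 CPM were found in at least 3 of the 6 libraries compared, so JAK3 passed through its PC3 libraries alone and STAT3, STAT5A and STAT5B through their LNCaP libraries alone, which fixed their direction.

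**Figure D1:**
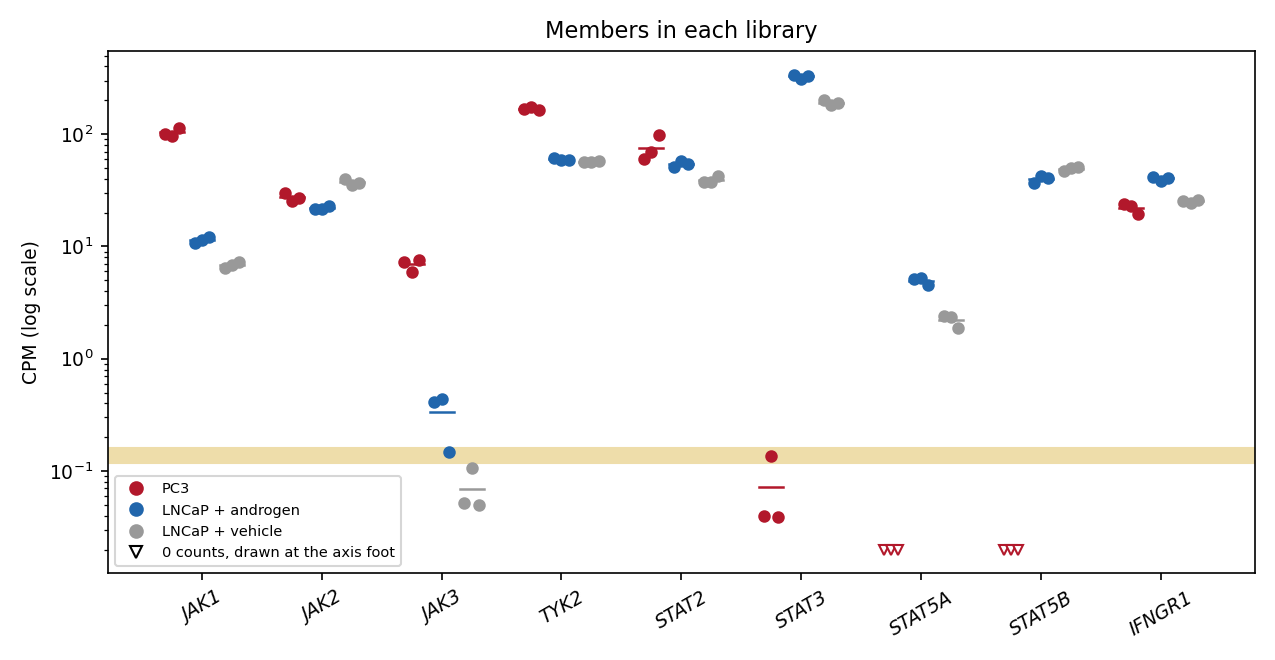
Level of each member in CPM (log scale) in every library, with points for libraries, lines for group means and a shaded band for the floor. JAK1 lies at 96.9 to 114 CPM in PC3 and at 6.38 to 12.1 CPM in LNCaP libraries, and STAT5A and STAT5B lie at 0 counts (open triangles) in all 3 PC3 libraries.

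JAK1, the kinase shared by the interferon, interleukin 6 and common gamma chain receptors, lies on chromosome 1 of GRCh38 from 64833223 to 65067754 on the minus strand. It had 2500, 2156 and 2908 counts in the PC3 libraries, 231, 233 and 244 in the androgen-treated and 122, 128 and 147 in the vehicle-treated LNCaP libraries. The 3 groups did not overlap, with PC3 highest and vehicle lowest. The mean level was 104 ± 9.42 CPM in PC3 cells (SD, n = 3), 11.4 ± 0.722 in androgen-treated and 6.84 ± 0.455 in vehicle-treated LNCaP cells. PC3 cells were 9.02-fold higher than androgen-treated LNCaP cells (log2 3.17, SE 0.0989, edgeR adjusted p = 6.33e-08). Against vehicle-treated cells the difference was 14.9-fold (log2 3.90, SE 0.103, edgeR adjusted p = 3.33e-08).

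TYK2 is the kinase of the type I interferon and interleukin 12 receptors and lies on chromosome 19 from 10350533 to 10380608, minus strand. The PC3 libraries had 4165, 3856 and 4180 counts, the androgen-treated libraries 1323, 1206 and 1189 and the vehicle-treated libraries 1078, 1063 and 1151. All PC3 libraries, at 164 to 173 CPM, lay above all LNCaP libraries, at 56.4 to 61.2 CPM. PC3 cells were 2.79-fold above androgen-treated (log2 1.48, SE 0.055, edgeR adjusted p = 1.42e-07) and 2.92-fold above vehicle-treated cells (log2 1.54, SE 0.0532, edgeR adjusted p = 1.02e-07).

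JAK3, which works with the common gamma chain in lymphocytes, lies on chromosome 19 from 17824780 to 17848071, minus strand. It was low everywhere. PC3 libraries had 184, 131 and 194 counts, androgen-treated libraries 9, 9 and 3, and vehicle-treated libraries 1, 2 and 1, so the vehicle group was under the floor. PC3 cells were 20.2-fold higher than androgen-treated LNCaP cells (log2 4.33, SE 0.286, edgeR adjusted p = 2.52e-06). Taking the lowest PC3 library against the highest floor of 1 vehicle library, PC3 cells were 36.8-fold higher than vehicle-treated cells (edgeR adjusted p = 3.74e-07). The vehicle counts were above 0, so this fold is not a strict bound. The chain that JAK3 binds, IL2RG, was at 0.0944 ± 0.0589 CPM in PC3 cells and 2.14 ± 0.594 CPM in androgen-treated LNCaP cells (SD, n = 3), a pattern unlike that of JAK3.

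JAK2 serves the growth hormone, erythropoietin and interferon gamma receptors and lies on chromosome 9 from 4984390 to 5129948, plus strand. Its PC3 level lay between both LNCaP groups. PC3 libraries had 752, 569 and 691 counts (25.6 to 29.99 CPM), androgen-treated libraries 465, 437 and 461 (21.4 to 22.9 CPM) and vehicle-treated libraries 766, 659 and 746 (35.2 to 40.1 CPM). The groups did not overlap in CPM. PC3 cells were 1.25-fold above androgen-treated cells (log2 0.32, SE 0.0916, edgeR adjusted p = 0.0119) and 1.38-fold below vehicle-treated cells (log2 -0.46, SE 0.0891, edgeR adjusted p = 0.00162), both short of the 2-fold limit. Without PC3 replicate 1 the first of these differences had an edgeR adjusted p = 0.0578. Its log2 value ranged from 0.21 to 0.50 when 1 library was left out, with the filter repeated or not. Over all alternative fits with edgeR or DESeq2 its adjusted p reached 0.131.

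STAT3, the main STAT of interleukin 6 signalling, lies on chromosome 17 from 42313324 to 42388540, minus strand. PC3 libraries had 1, 3 and 1 counts. The androgen-treated LNCaP libraries had 7343, 6315 and 6632 counts and the vehicle-treated libraries 3823, 3418 and 3839, which made it the member with the highest counts in LNCaP cells. Taken against the floor, STAT3 was 2300-fold lower in PC3 than in androgen-treated LNCaP cells (edgeR adjusted p = 6.56e-09). It was 1350-fold lower than in vehicle-treated cells (edgeR adjusted p = 8.18e-09). Each fold takes the lowest LNCaP library against the highest floor of 1 PC3 library. The PC3 counts were 1 to 3, so neither fold is a strict bound.

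STAT5A and STAT5B encode the near-identical STAT5 proteins that carry growth hormone, prolactin and interleukin 2 signals. STAT5B lies on chromosome 17 from 42199176 to 42288633 on the minus strand and STAT5A from 42287547 to 42311943 on the plus strand, so that their annotations share 1087 bp on opposite strands. All 3 PC3 libraries had 0 counts of both genes. STAT5B had 789, 861 and 815 counts in androgen-treated and 895, 934 and 1024 in vehicle-treated LNCaP libraries, and STAT5A had 110, 106 and 91 and then 46, 44 and 38. STAT5B was thus at least 270-fold lower in PC3 than in androgen-treated cells (edgeR adjusted p = 2.74e-07) and at least 347-fold lower than in vehicle-treated cells (edgeR adjusted p = 1.49e-07). STAT5A was at least 33.5-fold lower than in androgen-treated cells (edgeR adjusted p = 3.61e-06). Against vehicle-treated cells STAT5A did not pass the filter of more than 3 CPM in 3 libraries, and it was at least 14-fold lower with no test.

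STAT2, a partner of IRF9 in the type I interferon response, lies on chromosome 12 from 56341597 to 56360203, minus strand. PC3 libraries had 1513, 1540 and 2488 counts, androgen-treated libraries 1113, 1175 and 1097, and vehicle-treated libraries 712, 697 and 856. PC3 replicate 3, at 97.9 CPM, stood above PC3 replicates 1 and 2 at 60.3 and 69.2 CPM, and the PC3 group still did not overlap either LNCaP group. The PC3 difference was 1.38-fold against androgen-treated (log2 0.46, SE 0.171, edgeR adjusted p = 0.0337) and 1.92-fold against vehicle-treated cells (log2 0.94, SE 0.176, edgeR adjusted p = 0.00138). Without PC3 replicate 3 these log2 differences were 0.22 (edgeR adjusted p = 0.033) and 0.68 (edgeR adjusted p = 3.6e-05). Without PC3 replicate 1 the log2 difference from vehicle-treated cells was 1.07 and passed both limits (edgeR adjusted p = 0.0013), and so it did at 1.01 without vehicle replicate 3 (edgeR adjusted p = 0.00504). In the comparison with androgen-treated cells the adjusted p of STAT2 reached 0.0614 to 0.0978 without any 1 of the 3 androgen-treated libraries. Over all alternative fits with edgeR or DESeq2 it reached 0.182.

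IFNGR1, the chain of the interferon gamma receptor that binds the cytokine and JAK1, lies on chromosome 6 from 137197483 to 137219449, minus strand. PC3 libraries had 596, 510 and 496 counts (19.5 to 23.8 CPM), androgen-treated libraries 902, 780 and 827 (38.2 to 41.7 CPM) and vehicle-treated libraries 488, 458 and 518 (24.4 to 25.7 CPM). The level was lowest in PC3 and highest in androgen-treated cells, with no overlap in CPM. PC3 cells were 1.84-fold below androgen-treated cells (log2 -0.88, SE 0.0944, edgeR adjusted p = 4.53e-05), short of the 2-fold limit. When 1 library was left out, with the filter repeated or not, the log2 difference ranged from -1.01 to -0.69. IFNGR1 was called there without androgen-treated replicate 2 where the filter was repeated. Against vehicle-treated cells the log2 difference of -0.22 did not pass the test (SE 0.0941, edgeR adjusted p = 0.0639).

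In the comparison of PC3 with vehicle-treated LNCaP cells, 8 of the 9 members passed the filter and 5 were called, JAK1, JAK3 and TYK2 higher and STAT3 and STAT5B lower, where 43.2% of all 12686 tested genes were called, 22.2% higher and 21% lower. Here too JAK3 passed the filter through its PC3 libraries alone and STAT3 and STAT5B through their LNCaP libraries alone, which fixed their direction. By the adjusted p alone 4 members were higher and 3 lower, where 83.4% of all tested genes passed, 42.6% higher and 40.8% lower. Both comparisons use the same 3 PC3 libraries. The members' groups did not overlap in CPM in 9 of 9 cases against androgen-treated and in 8 of the 8 tested against vehicle-treated cells, which is close to the 86.2% and 85.5% of all tested genes.

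**Figure D2:**
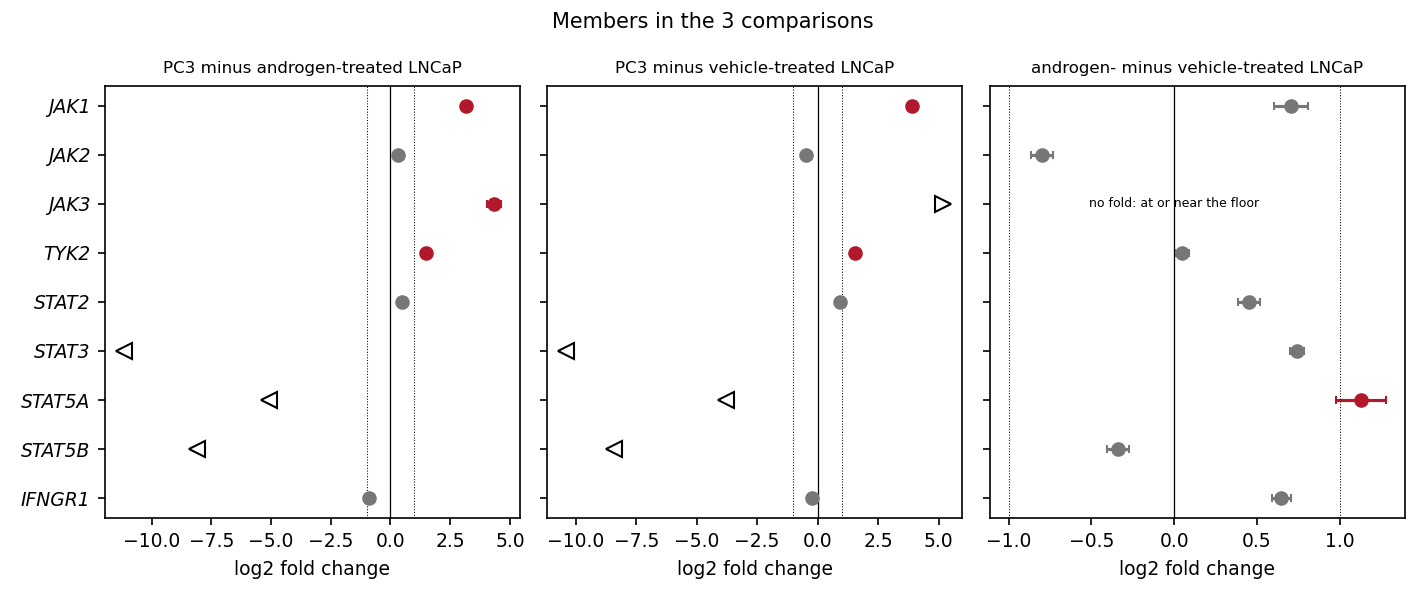
Log2 fold change of each member in the 3 comparisons, with points for edgeR estimates, bars for SE, red for called genes and dotted lines at 2-fold. Open triangles give the fold taken against the floor where 1 group was at or under it. The horizontal scale of the androgen comparison is narrower, and there only STAT5A, at 1.13, lies past the 2-fold line among the 8 tested members.

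The third comparison asked how LNCaP cells respond to androgen. STAT5A rose 2.19-fold, and it was the only member called among the 8 tested, where 14% of all 11697 tested genes were called, 6.54% higher and 7.49% lower. A further 4 members were higher and 2 were lower with adjusted p-values under 0.05 and fold changes under 2. By the adjusted p alone, 5 members were higher and 2 lower, where 74.9% of all tested genes passed, 37.1% higher and 37.8% lower. The median log2 fold change of the 8 tested members was 0.551, against -0.00682 over all tested genes. All 8 had groups that did not overlap, as 76.8% of tested genes did.

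STAT5A was at 5.08, 5.20 and 4.52 CPM with androgen and at 2.41, 2.35 and 1.89 CPM with vehicle (log2 1.13, SE 0.151, edgeR adjusted p = 1.6e-05). It passed the filter through the androgen-treated libraries alone, which fixed its direction. When 1 library was left out, its log2 difference ranged from 1.01 to 1.18, close to the 2-fold limit at the low end. STAT5B went the other way, at 36.5, 42.2 and 40.5 CPM with androgen against 46.8, 49.8 and 50.8 CPM with vehicle (log2 -0.34, SE 0.0677, edgeR adjusted p = 0.000541). The difference between the responses of these paralogs was not tested.

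STAT3 averaged 326 ± 15.2 CPM with androgen and 191 ± 8.87 CPM with vehicle (SD, n = 3), with every androgen-treated library above every vehicle-treated one (log2 0.74, SE 0.0415, edgeR adjusted p = 3.38e-09). Among the 8 tested members JAK2 had the largest negative difference (log2 -0.80, SE 0.0648, edgeR adjusted p = 1.28e-07), whereas JAK1 was 1.63-fold higher with androgen (log2 0.71, SE 0.105, edgeR adjusted p = 4.19e-05). IFNGR1 was 1.57-fold higher (log2 0.65, SE 0.057, edgeR adjusted p = 2.91e-07) and STAT2 1.37-fold higher (log2 0.45, SE 0.0684, edgeR adjusted p = 4.88e-05). TYK2 differed by log2 0.05 (SE 0.0427, edgeR adjusted p = 0.343), which did not pass the test. JAK3, at 3 to 9 counts with androgen and 1 to 2 with vehicle, did not pass the filter and gives no fold, since the lowest androgen-treated library was at the floor.

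Levels of different genes were compared only per kilobase of exon sequence. In PC3 cells TYK2 led at 19.7 ± 0.555 CPM per kb (SD, n = 3), followed by STAT2 at 8.15 ± 2.11, JAK1 at 7.87 ± 0.715, IFNGR1 at 6.22 ± 0.633, JAK2 at 3.49 ± 0.282 and JAK3 at 0.831 ± 0.112 CPM per kb. The PC3 libraries of STAT2 overlapped those of JAK1 and of IFNGR1, so STAT2 did not differ from either beyond the spread. JAK1, at 7.36 to 8.69 CPM per kb, and IFNGR1, at 5.5 to 6.7, did not overlap. In androgen-treated LNCaP cells STAT3 led at 29.1 ± 1.35 CPM per kb, then IFNGR1 at 11.4 ± 0.518, TYK2 at 7.02 ± 0.139, STAT2 at 5.86 ± 0.331, STAT5B at 3.28 ± 0.243 and JAK2 at 2.77 ± 0.105. JAK1, at 0.866 ± 0.0548, and STAT5A, at 0.773 ± 0.0568 CPM per kb, overlapped there, and JAK3 was last at 0.0401 ± 0.0193. In vehicle-treated cells STAT3 led at 17 ± 0.792 CPM per kb and IFNGR1, at 7.11 ± 0.195, was next above TYK2, at 6.66 ± 0.0418. JAK2 at 4.73 ± 0.315, STAT2 at 4.19 ± 0.326 and STAT5B at 4.06 ± 0.171 CPM per kb followed, of which neighbours overlapped, and JAK1 stood at 0.519 ± 0.0346, STAT5A at 0.347 ± 0.0447 and JAK3 at 0.00831 ± 0.00385. With the length of the longest transcript, JAK1 moved above STAT2 in PC3 cells (13.3 against 11.8 CPM per kb) and STAT5B moved above STAT2 and JAK2 in vehicle-treated cells (6.69 against 6.09 and 5.33). With that length 25 of these group levels moved by more than their SD and 2 did not, so the values depend on the length used. STAT3 then stood at 64.5 CPM per kb in androgen-treated and 37.8 in vehicle-treated cells.

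**Figure D3:**
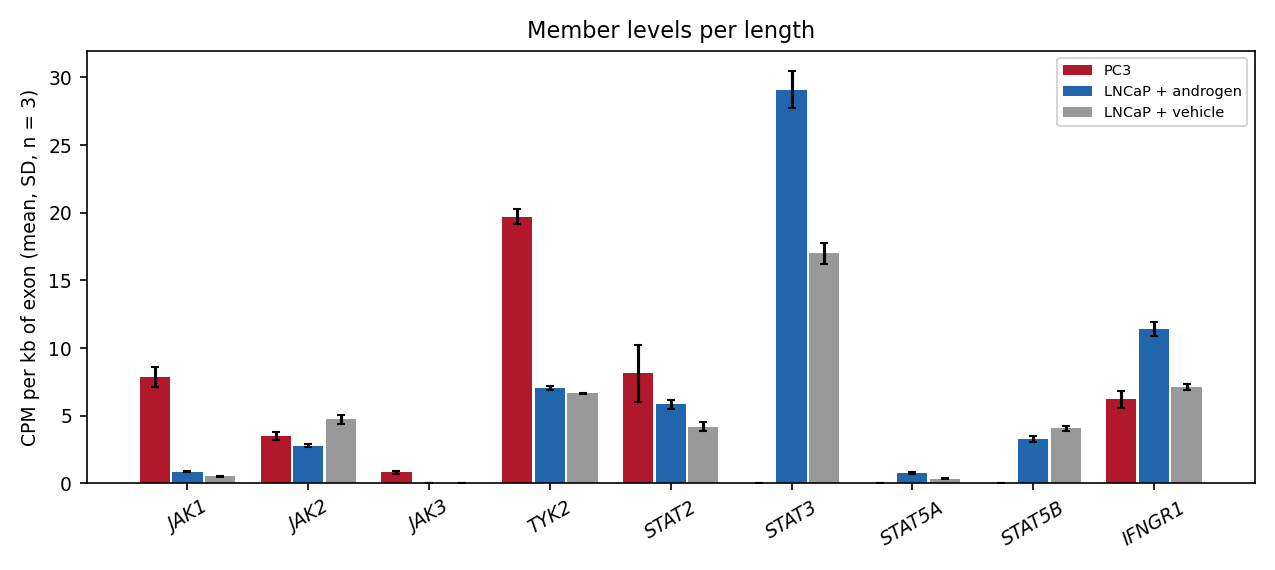
Mean level of each member in CPM per kilobase of exon in the 3 groups, with bars for means and error bars for SD (n = 3 libraries). STAT3 is the tallest bar of both LNCaP groups, at 29.1 and 17 CPM per kb, and TYK2 the tallest in PC3 cells at 19.7 CPM per kb.

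STAT5B, STAT5A and STAT3 are neighbours on chromosome 17, and the end of STAT5A lies 1.38 kb from the nearer end of STAT3. Their neighbours showed the same pattern in PC3 cells. Of 54 table genes within 500 kb of these 3 genes, a run of 11 adjacent genes from DHX58 to CAVIN1 (chromosome 17, 42101404 to 42423256, 321.9 kb) had at most 3 counts each in every PC3 library. Summed over all 11 genes, no PC3 library held more than 4 counts, and no LNCaP library fewer than 9846. Of the 11 genes, 6 had more than 3 CPM in every LNCaP library, namely KAT2A, RAB5C, GHDC, STAT5B, STAT3 and CAVIN1.

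KAT2A, a histone acetyltransferase, had 0, 0 and 1 counts in PC3 and 1671 to 2330 in LNCaP libraries. RAB5C, a GTPase of early endosomes, had 0 in all PC3 and 3007 to 4806 in LNCaP libraries. CAVIN1, a coat protein of caveolae, had 0 in all PC3 and 63 to 169 in LNCaP libraries. DHX58, an RNA helicase of the RIG-I family, had 0, 1 and 0 counts in PC3 and 21 to 42 in LNCaP libraries. HSPB9, KCNH4 and HCRT were at 0 in all PC3 libraries and at 0 to 6 counts in LNCaP libraries, so they show little either way.

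On the far side of CAVIN1, ATP6V0A1, a subunit of the vacuolar proton pump, had 3, 4 and 0 counts in PC3 and 1070 to 1593 in LNCaP libraries, which just misses the limit. The next protein-coding gene, NAGLU, a lysosomal glucosaminidase, had 253, 232 and 234 counts in PC3 libraries, and COASY beyond it had 2316 to 2706. On the other side, C17orf113 had 29 to 57 counts in PC3 and 26 to 68 in LNCaP libraries. Outside the run, 25 genes of the window had more than 3 CPM in every LNCaP library, and 0 of them were at or under 3 counts in every PC3 library. Over the whole table the same was true of 206 of 10937 genes (1.88%). Ranked by genes above 3 CPM in every LNCaP library, this run of 6 was the longest on an autosome, and the next held 3.

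**Figure D4:**
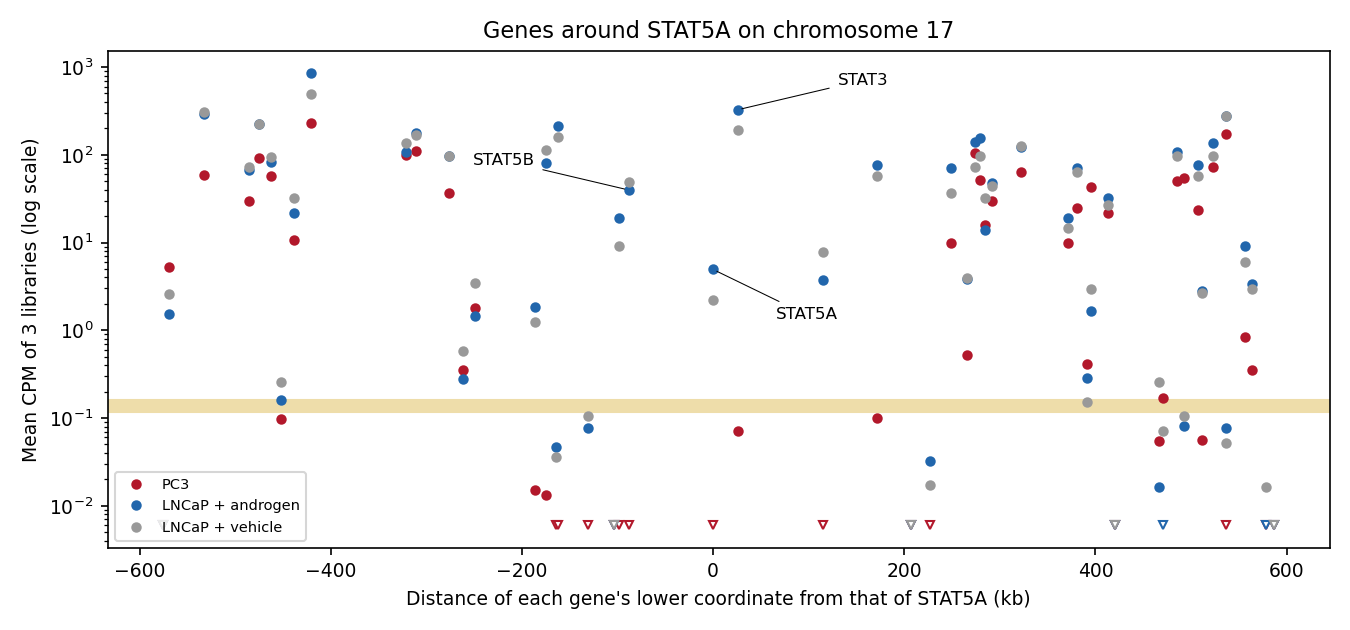
Mean CPM (log scale, 3 libraries a group) of table genes around STAT5A on chromosome 17, by distance in kb, with open triangles for a mean of 0 and a shaded band for the floor. All PC3 points from DHX58 to CAVIN1, a stretch of 321.9 kb, lie under the floor, whereas KAT2A, RAB5C, GHDC, STAT5B and STAT3 lie well above it in both LNCaP groups.

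Counts of STAT5A and STAT5B can be split between the paralogs over most, but not all, of their length. Of all 74-nt stretches of their annotated transcripts, the read length used here, 6.15% of STAT5A and 4.25% of STAT5B also occurred elsewhere. For JAK1 4.84% were shared with LINC01359, a noncoding gene that overlaps it on the same strand, and how such reads were counted was not tested. The share was at most 1% for TYK2, STAT2, JAK3 and STAT3, and 0 for JAK2 and IFNGR1. With strand ignored, the highest sum over the 11 genes in a PC3 library was still 4 counts.

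Of the other STATs and interferon receptor chains, a list of 8 genes, 6 were tested in each PC3 comparison. Against androgen-treated cells 2 were higher and 4 not called, with a median log2 fold change of 0.539, against 0.0356 over all genes, of which 24% were called higher. Against vehicle-treated cells 4 of 6 were higher and 2 not called, with a median of 1.33, against 0.0263 over all genes, of which 22.2% were called higher. STAT6 passed the filter through its PC3 libraries alone. STAT6, the STAT of interleukins 4 and 13, was at 47.0, 36.9 and 59.0 CPM in PC3 libraries and at 0.628 to 1.202 CPM in LNCaP libraries (log2 5.35 against androgen-treated cells, SE 0.226, edgeR adjusted p = 2.5e-07). IRF9, a DNA-binding partner of STAT2, was at 38.8, 46.1 and 51.05 CPM against 5.55 to 7.89 CPM (log2 2.58, SE 0.126, edgeR adjusted p = 4.98e-07). PC3 cells thus had RNA of STAT2 and STAT6 and none above the floor of STAT3, STAT5A or STAT5B.

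The partner of IFNGR1, IFNGR2, was at 88.7 to 100.4 CPM in PC3, 42.8 to 49.96 CPM in androgen-treated and 32.0 to 37.2 CPM in vehicle-treated libraries, and was called against vehicle-treated cells (log2 1.43, SE 0.0866, edgeR adjusted p = 1.81e-06). Against androgen-treated cells the log2 difference of IFNGR2 was 0.97 (edgeR adjusted p = 1.4e-05), just under the 2-fold limit and opposite in sign to the -0.88 of IFNGR1. It was called there with at least 10 counts in every library, without PC3 replicate 2 and without androgen-treated replicate 2, and ranged from 0.81 to 1.14 when 1 library was left out, with the filter repeated or not. The type I interferon chains IFNAR1 and IFNAR2 were not called in any of the 3 comparisons. IFNAR1 was at 110 to 125 CPM in PC3, 134 to 149 in androgen-treated and 90.4 to 97.9 CPM in vehicle-treated libraries. In LNCaP cells androgen raised 1 of the 5 tested genes of this list, IL10RB, a chain shared by the interleukin 10 and lambda interferon receptors, from 9.48 to 11.7 CPM with vehicle to 25.7 to 27.96 CPM (log2 1.26, SE 0.0838, edgeR adjusted p = 1.83e-08).

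Of 32 cytokine receptor chains that bind JAK kinases, 13 passed the filter against androgen-treated cells, and 7 were higher in PC3 cells, 2 lower and 4 not called, where 24% of all tested genes were called higher and 22.1% lower. The median log2 fold change was 1.35. Against vehicle-treated cells 7 were higher, 1 lower and 5 not called, with a median of 1.46, where 22.2% of all tested genes were called higher and 21% lower. In both comparisons 4 of the 7 higher genes, IL7R, IL27RA, IL20RA and IL15RA, passed the filter only because they were high in PC3 cells, so their direction and part of the medians were fixed by the filter. OSMR, the oncostatin M receptor, was at 61.6 to 77.9 CPM in PC3 and 5.65 to 8.38 CPM in LNCaP libraries (log2 3.19 against androgen-treated cells, SE 0.14, edgeR adjusted p = 2.92e-07). IL27RA, a chain of the interleukin 27 receptor, averaged 27.6 ± 2.03 CPM in PC3 (SD, n = 3) and lay at 0.695 to 3.33 CPM in LNCaP libraries. IL7R was at 41.7, 40.6 and 13.1 CPM in the PC3 libraries and at or under the floor in both LNCaP groups. Taken against the floor of androgen-treated cells, IL7R was 88-fold higher in PC3 cells (edgeR adjusted p = 1.45e-05). PC3 replicate 3 was the low library of IL7R, which was called without it as well, and the high library of STAT2.

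LIFR, the leukemia inhibitory factor receptor, and GHR, the growth hormone receptor, were lower in PC3 than in androgen-treated LNCaP cells and were the receptors that rose with androgen, 2 of the 9 tested, with the other 7 not called, where 6.54% of all tested genes were called higher. LIFR was at 350, 364 and 390 CPM with androgen and at 43.5, 44.5 and 40.1 CPM with vehicle (log2 3.08, SE 0.0592, edgeR adjusted p = 1.82e-13). In PC3 libraries LIFR was at 68.9 to 80.75 CPM, above vehicle-treated cells by less than 2-fold (log2 0.78, SE 0.0793, edgeR adjusted p = 3.78e-05). GHR was at 55.3 to 59.2 CPM with androgen, 21.8 to 25.6 CPM with vehicle (log2 1.202, SE 0.0611, edgeR adjusted p = 1.31e-09) and 7.28 to 12.05 CPM in PC3 libraries. IL6ST, the signalling chain of LIFR, OSMR and the interleukin 6 receptor, was at 178 to 200.1 CPM with androgen, 96.5 to 100.5 CPM with vehicle and 161 to 171 CPM in PC3 libraries, and was not called in any comparison.

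Of 39 ligand genes 4 passed the filter against either LNCaP group. Against androgen-treated cells all 4 passed through their PC3 libraries alone, and against vehicle-treated cells CLCF1, CTF1 and IL15 did, so that they were higher in PC3 cells was fixed by the filter. LIF, the ligand of LIFR, was at 123, 104 and 118 CPM in PC3 libraries, at 3.00, 1.72 and 1.49 CPM with androgen and at 8.42, 5.28 and 5.96 CPM with vehicle. It was higher in PC3 than in androgen-treated cells (log2 5.77, SE 0.209, edgeR adjusted p = 1.25e-07), and it fell with androgen, as the only ligand tested there, which passed through its vehicle-treated libraries alone (log2 -1.68, SE 0.233, edgeR adjusted p = 2.37e-05). LIF and its receptor LIFR thus moved in opposite directions with androgen. CLCF1 was at 19.4 to 26.8 CPM in PC3 libraries, CTF1 at 3.27 to 4.05 CPM and IL15 at 3.27 to 4.41 CPM, and each had at most 0.736 CPM in any LNCaP library. IFNG and IFNB1 had 0 counts in all 9 libraries. IFNE, another interferon gene, had 57 to 89 counts in PC3 libraries and 0 in LNCaP libraries, and did not pass the filter.

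Of 18 negative regulators 16 were tested in each PC3 comparison, with 6 higher and 2 lower against androgen-treated and 6 higher and 3 lower against vehicle-treated cells. Over all tested genes 24% were higher and 22.1% lower in the first comparison and 22.2% and 21% in the second. The regulators' median log2 fold changes were 0.0706 and 0.576, against 0.0356 and 0.0263 over all genes. SOCS3, a feedback inhibitor of JAK kinases bound to IL6ST, was at 44.1, 47.7 and 31.4 CPM in PC3 libraries. It was at or under the floor with androgen and at 0.0496 to 0.314 CPM with vehicle. Taken against the floor, PC3 cells were 211-fold above androgen-treated cells (edgeR adjusted p = 1.24e-07). SOCS3 was the called regulator that passed the filter through its PC3 libraries alone. SOCS5, another member of that inhibitor family, was at 52.3 to 60.6 CPM in PC3 and 13.9 to 17.2 CPM in LNCaP libraries (log2 1.94 against androgen-treated cells, SE 0.0848, edgeR adjusted p = 2.87e-07). SH2B3, an adaptor that dampens JAK2, and PTPN2, a phosphatase of JAK1 and STAT proteins, were also higher in PC3 cells, at log2 1.94 (SE 0.0992, edgeR adjusted p = 6.35e-07) and 1.73 (SE 0.0618, edgeR adjusted p = 1.16e-07) against androgen-treated cells. PTPN6, a phosphatase known as SHP-1, was lower at 11.4 to 12.2 CPM against 37.4 to 55.9 CPM in LNCaP libraries. USP18, an inhibitor of type I interferon receptor signalling, and SOCS7 were called lower against vehicle-treated cells, at log2 -1.24 (SE 0.177, edgeR adjusted p = 0.000282) and -1.03 (SE 0.129, edgeR adjusted p = 0.000131). The call of SOCS7 was lost without PC3 replicate 2, without PC3 replicate 1 where the filter was repeated, and with at least 10 counts in every library, and its log2 difference ranged from -1.21 to -0.82 when 1 library was left out.

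With androgen, 2 of 15 tested regulators rose and 13 were not called, where 6.54% of all tested genes rose. Their median log2 fold change was -0.0811, against -0.00682 over all genes. SOCS2, an inhibitor of growth hormone receptor signalling, was at 62.1, 74.3 and 69.7 CPM with androgen and 6.54, 7.95 and 6.997 CPM with vehicle (log2 3.23, SE 0.0974, edgeR adjusted p = 9.24e-12). Its PC3 level, 59.1 to 62.0 CPM, lay near that of androgen-treated cells, and the difference did not pass the test (log2 -0.19, SE 0.0816, edgeR adjusted p = 0.0632). PIAS1, a STAT inhibitor that also binds the androgen receptor, was at 129 to 142 CPM with androgen, 49.8 to 50.4 CPM with vehicle and 44.1 to 50.3 CPM in PC3 libraries (log2 1.40 with androgen, SE 0.0476, edgeR adjusted p = 2.79e-11).

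Of 35 common STAT targets, among them SOCS2 and SOCS3 of the regulators, 16 were tested in each PC3 comparison. Against androgen-treated cells 6 were higher and 2 lower (median log2 fold change 0.232), where 46% of all tested genes were called, 24% higher and 22.1% lower, so that 8 called of 16 is close to the background. Against vehicle-treated cells 9 were higher and 2 lower (median 1.22), where 43.2% of all tested genes were called, 22.2% higher and 21% lower. ICAM1 and SOCS3 passed the filter through their PC3 libraries alone in both comparisons, and the targets called lower passed through LNCaP libraries alone. ICAM1, an adhesion molecule, was at 31.2, 32.1 and 44.6 CPM in PC3 libraries, 1.64 to 4.02 CPM with androgen and at or under the floor with vehicle. BCL2L1, which encodes BCL-XL, was at 568 to 680 CPM in PC3, 206 to 236 CPM with androgen and 98.7 to 104 CPM with vehicle, and rose with androgen (log2 1.07, SE 0.0464, edgeR adjusted p = 2.81e-10). IGF1, a STAT5 target in liver, had 0 counts in all PC3 libraries and 3.19 to 4.37 CPM in LNCaP cells. Its PC3 level was at least 23.6-fold below that of androgen-treated cells. PIM1, a kinase, was at 27.5 to 32.3 CPM in PC3 and 6.31 to 10.5 CPM in LNCaP libraries (log2 2.03 against androgen-treated cells, SE 0.119, edgeR adjusted p = 1.3e-06). NLRC5, an activator of MHC class I genes, was lower in PC3 than in vehicle-treated cells (log2 -1.42, SE 0.289, edgeR adjusted p = 0.00217). MCL1, BCL6 and PIM2 were not called in any comparison.

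With androgen, 5 of 15 tested targets rose and 10 were not called, with a median of 0.314, where 6.54% of all tested genes rose and their median was -0.00682. GBP2, an interferon-induced GTPase, was at 6.98, 5.34 and 6.66 CPM with androgen and 0.262, 0.320 and 0.397 CPM with vehicle (log2 4.22, SE 0.23, edgeR adjusted p = 2.6e-09), and passed the filter through its androgen-treated libraries alone. BCL2L1, JUNB and BCL3 rose by log2 1.07, 1.06 and 1.02. CISH, a textbook STAT5 target, did not pass the filter in any comparison. The 5 lists hold genes of the same pathway and some share members, so their counts are not independent of each other.

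**Figure D5:**
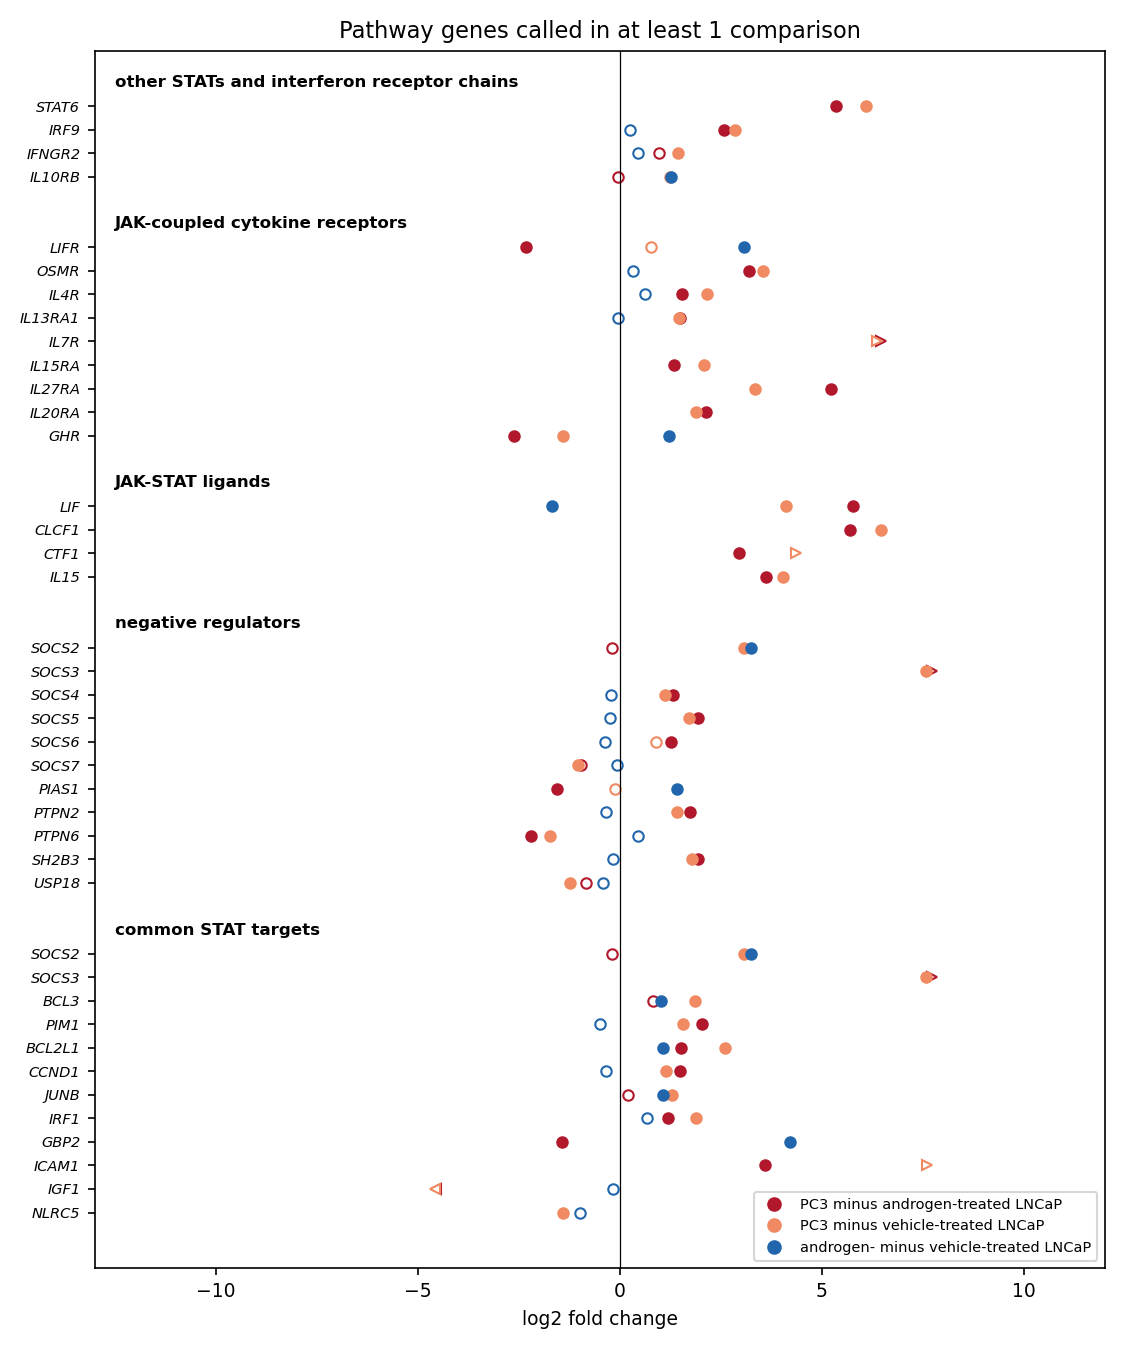
Log2 fold change of pathway genes called in at least 1 comparison, by list and comparison, with filled points for called genes and open points for tested genes that were not called. Triangles give folds taken against the floor where 1 group was at or under it. LIFR and SOCS2 lie past 3 with androgen (3.08 and 3.23) and LIF lies at -1.68.

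STAT dimers bind a palindrome known as GAS, TTCNNNGAA, and the complex that holds STAT2 and IRF9 binds the ISRE, searched here as TTTCNNTTTC. RefSeq windows on GRCh38.p14, from 250 bases before to 50 after a gene's start, were searched on both strands. GAS letters occurred in 7.67% of all 34796 windows and ISRE letters in 3.57%. The 9 members had 17 windows, and 0 held either motif. Of the 54 list genes tested in any comparison 40 had windows, 63 in all, of which 15.9% held GAS and 1.59% ISRE letters. GAS letters lay in windows of 9 of these genes. That of IL10RB lies past the start and is not printed, and the stretches below give the matches of the other 8 upstream of the start, with 10 bases on each side and the match in capitals, all 5′ to 3′ in the gene's direction.
LIFR (chr5:38595552-38595580, minus strand): ccattactagTTCCTTGAAccacaatcca
LIFR, other start (chr5:38557631-38557659, minus strand): gctttggagtTTCATCGAAaggtctttaa
GHR (chr5:42549932-42549960, plus strand): cttgtattgcTTCAAAGAAagtagaaagt
IL15RA (chr10:5978155-5978183, minus strand): gcagcaggaaTTCGGCGAAgtggcggagc
IRF9 (chr14:24161192-24161220, plus strand): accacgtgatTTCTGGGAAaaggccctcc
ICAM1 (chr19:10271035-10271063, plus strand): ggcgcgaggtTTCCGGGAAagcagcaccg
IRF1 (chr5:132490879-132490907, minus strand): acagcctgatTTCCCCGAAatgacggcac
BCL6 (chr3:187745478-187745506, minus strand): gaagctcaaaTTCCGAGAAttgagctctg
TAP1 (chr6:32852932-32852960, minus strand): gtagcgtgggTTCTGGGAAatgtggagca
LIFR and GHR rose with androgen, and IL15RA, IRF9, ICAM1 and IRF1 were higher in PC3 cells, whereas BCL6 and TAP1 with the same kind of match were not called in any comparison. A match describes the letters only, and binding was not measured.

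The genes whose log2 CPM followed each member most closely over the 9 libraries were found among 12843 genes. They were DCAF4 (Pearson's r = 0.9992) and MAF1 for JAK1, LRATD2 and FEZ2 for TYK2, TWF2 and UPP1 for JAK3, SULT1A1 (r = 0.9999) and GLB1L2 for STAT3, ZNF300 and SYT4 for STAT5B, and DAZAP2 and TMEM141 for STAT5A. For the members with smaller differences between lines they were LOC643072 (r = 0.9764) and MYNN for JAK2, NKTR (r = 0.9786) and ZNF224 for STAT2, and VAMP7 (r = 0.9939) and CENPN for IFNGR1. The 9 libraries fall into 3 groups, so these values mostly describe the order of the group means.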

How the data were processed

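RNA of 9 libraries was sequenced by the authors as 74-nt single-end reads with molecular identifiers after poly(A) selection. Per the labels the reads were trimmed, aligned to hg38 with STAR and freed of duplicates with UMI-tools, and the submitters' processing notes name cutadapt 4.1, STAR 2.7.7a and UMI-tools 1.1.2. The authors deposited counts, whole reads per gene without normalization, as 1 table beside per-library STAR output. The table's 253944 values equalled the forward-strand column, 0 columns were left out, and 20.25 to 25.43% of reads were not on a gene.

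The 9 members and the gene lists were chosen with earlier results of these data known. The genes named are all members, their chromosome 17 neighbours, the 2 closest genes of each member, and per list and comparison the called genes with the 3 largest rises and falls, or genes needed beside a member. BCL6, PIM2, MCL1, CISH, IRF1, JUNB, BCL3, IL2RG, IL15RA, IL20RA, TAP1, IFNG, IFNB1 and IFNE were named after their values were seen. Some genes are not reported here and were left out of the gene and marker lists.

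Genes with more than 3 CPM in at least 3 of a comparison's 6 libraries were tested with edgeR 4.0.16 in R 4.3.3 (TMM, quasi-likelihood F test, Benjamini-Hochberg adjustment over all genes tested, DESeq2 1.42.0 as an alternative). The study's own model had a batch term, which was not used here since no source names the batches. Counts of replicates differed by more than sampling noise, so each counted as 1 sample. Scripts were tested on simulated data. Same-numbered androgen- and vehicle-treated libraries deviated together from their group means (r = 0.194, 0.217 and 0.2 over 11697 genes). The numbers may thus pair them, by the data and not by the labels. The test described above did not use this pairing, and a fit with the replicate number as a block was an alternative. Positions are from GENCODE on GRCh38, where 91.07% of the table's symbols were found.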

Additional observations from a re-analysis of the deposited data

How the results depend on the processing

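Of 494 alternative values of the members' log2 fold changes, 478 kept their direction and their side of the call limits, 16 passed the limits only under the alternative, and 0 turned direction or lost a call. Most of the 16 came from the adjusted p alone, without the 2-fold limit. Members that an alternative left untested gave no value, so calls lost in that way are not counted among the 494. Unfiltered fits called 9147, 8713 and 2941 genes in PC3 against androgen-treated, PC3 against vehicle-treated and androgen- against vehicle-treated cells, in place of 5773, 5485 and 1641, and called 2 members in the last, since JAK3 was then tested. With at least 10 counts in every library, only 2 members were called in each PC3 comparison, JAK1 and TYK2, because that filter drops every member at the floor. The adjusted p alone passed 10530, 10577 and 8763 genes, and 7 members with androgen. All 9 libraries in 1 fit called 2 members with androgen, JAK3 and STAT5A.

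Leaving out 1 library gave 3 to 6 called members in either PC3 comparison and 0 to 1 with androgen. The low ends come from repeating the filter on the remaining 5 libraries, which was added after the data were seen and leaves genes expressed in 1 group of 2 libraries untested. With the tested genes kept, the counts were 6, 5 to 6, and 1. A replicate block called 6, 5 and 1 members, as without it, and changed no member's call. PC3 libraries did not deviate with same-numbered LNCaP libraries (r from -0.0935 to 0.0333). TMM and DESeq2 size factors shifted the median gene by at most 0.00898 in log2 size.

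The lists' alternatives were added after the data were seen. Without a filter 14 and 15 ligands were called in the PC3 comparisons, and NLRC5 (log2 -0.99 with androgen, not called) was called with unstranded counts and when androgen-treated replicate 1 or 3 or vehicle-treated replicate 1 or 2 was left out, with a range of -1.13 to -0.85 over the libraries left out. Depth limits STAT5A, with at most 110 counts, and JAK3 in LNCaP cells.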
